A study of Mus musculus with 22 samples.

Results

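The potassium channel genes are described here in the hypothalamus of mice that carried a lung tumour. The members are the genes whose symbol in the platform annotation begins with Kcn, the prefix shared by pore-forming and accessory subunits of potassium channels. The rule takes no account of measured values. It found 87 genes among the 18820 genes measured, through 89 probe sets that name 1 gene each. Where a gene had several probe sets (Kcnd3 and Kcnh8), the one with the highest mean stood for it. The mean of 72 of the 87 was above 3.87 on the log2 scale, the 95th percentile of 1184 probe sets for olfactory and vomeronasal receptors, which served as a measure of background. The other 15 were Kcna7, Kcne1, Kcne2, Kcne3, Kcne4, Kcnj1, Kcnj14, Kcnj15, Kcnk5, Kcnk7, Kcnk16, Kcnk18, Kcns1, Kcnu1 and Kcnv2. A further 2 probe sets name Kcnmb4 together with its antisense gene and were left out. One member, Kcnrg, encodes a regulator of channel assembly and no channel.

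The study followed tumour growth in male C57BL/6 mice of about 20 g that were 6 weeks old. Lewis lung carcinoma, a transplantable mouse lung tumour widely used as a model of wasting, was injected as cells into the muscle of a hind leg. Hypothalami were taken from tumour-bearing mice on day 10 (n = 5), day 14 (n = 7) and day 17 (n = 6), and from control mice on day 14 (n = 4), so the tumour groups of days 10 and 17 had no controls of their own day. All 22 mice were housed singly, ate the same diet freely and were anaesthetised with ketamine and xylazine before dissection. Each mouse gave 1 array. The labels do not state what the controls received in place of tumour cells, or whether mice of a group shared a day of inoculation or a tumour donor. The values are log2 intensities, on which a difference of 1 is a 2-fold difference.

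Potassium channels let potassium leave the cell, which brings the membrane back to rest after an action potential and sets how readily a neuron fires again. In the hypothalamus they couple metabolism to firing. ATP-sensitive channels open when cellular ATP is low, and G-protein-gated inward rectifiers carry the inhibition by neuropeptides and opioids of the neurons that govern feeding. Astrocytes use another inward rectifier to clear potassium from around active neurons. Differences below are for whole dissected tissue, in which fewer cells of a type and less RNA per cell cannot be told apart.

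Of the 87 genes, 4 fell past an adjusted p of 0.05 in at least 1 comparison with control, and 0 rose. Under some alternatives given at the end, Kcnt1 and Kcne2 were called higher on day 17, and Kcng1, Kcns2 and Kcnc1 lower. Of all genes, 0.106%, 0.218% and 1.12% were called on days 10, 14 and 17. The 4 members that fell were Kcns2 on day 10 and Kcnj10, Kcne1l and Kcnip3 on day 17. A promoter window of RefSeq, 250 bases before to 50 bases after the annotated start, was at hand for 3 of these 4. The windows of those 3 genes (GRCm38.p6, printed 5′ to 3′ on the gene's strand) are shown because these are the genes on which the results turn. Capitals mark matches on either strand to a GC box (GGGCGG), a glucocorticoid receptor half-site (AGAACA), a cyclic AMP response element (TGACGTCA) or a TATA box (TATAAA).
Kcnj10, chr1:172340960-172341259, plus strand: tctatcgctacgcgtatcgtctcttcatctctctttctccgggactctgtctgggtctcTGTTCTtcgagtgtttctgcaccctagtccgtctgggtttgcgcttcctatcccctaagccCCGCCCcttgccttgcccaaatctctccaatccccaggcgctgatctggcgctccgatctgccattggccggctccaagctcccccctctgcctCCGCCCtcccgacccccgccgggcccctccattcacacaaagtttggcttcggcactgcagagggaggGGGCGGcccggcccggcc
Kcne1l, chrX:142306149-142306448, minus strand: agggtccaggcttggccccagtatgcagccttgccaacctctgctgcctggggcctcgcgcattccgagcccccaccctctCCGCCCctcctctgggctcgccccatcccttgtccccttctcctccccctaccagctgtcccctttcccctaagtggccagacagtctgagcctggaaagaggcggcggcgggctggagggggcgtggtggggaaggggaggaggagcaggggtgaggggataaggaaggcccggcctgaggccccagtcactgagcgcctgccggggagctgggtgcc
Kcnip3, chr2:127522045-127522344, minus strand, the first of 3 annotated starts: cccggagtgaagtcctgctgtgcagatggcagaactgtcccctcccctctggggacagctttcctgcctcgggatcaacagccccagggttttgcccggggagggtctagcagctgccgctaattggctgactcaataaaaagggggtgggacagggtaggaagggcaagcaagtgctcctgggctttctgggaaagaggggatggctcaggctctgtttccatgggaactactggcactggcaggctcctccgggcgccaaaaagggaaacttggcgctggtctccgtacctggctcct
The Kcnj10 window held 3 GC boxes, 1 glucocorticoid half-site and 21 CpG dinucleotides. The Kcne1l window held 1 GC box and 12 CpG dinucleotides. The Kcnip3 window shown held none of the 4 motifs and 8 CpG dinucleotides, and those of the other 2 starts held 1 and 2 GC boxes. A GC box was present in 47.4% of 97 windows of Kcn genes and in 35.7% of all 32851 windows. The glucocorticoid half-site was present in 17.5% of the Kcn windows and in 19% of all windows. The TATA box was present in 5.15% of the Kcn windows and in 13.6% of all, and the cyclic AMP element in 0 of the 97 and in 1.79% of all. These are matches of letters, not known binding sites.

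The arrays were alike as wholes. Over all probe sets their medians ran between 5.27 and 5.34, and any 2 of them correlated at 0.980 to 0.995. All 12 hypothalamic marker genes measured (among them Hcrt, Pomc, Oxt and Avp) were above background, with group means of 7.30, 7.46 and 7.37 on tumour days 10, 14 and 17 and 7.42 in controls, and 1 of the 12, Ghrh, was called higher on days 14 and 17. Markers of the neighbouring thalamus stood apart. The mean of 13 such genes was above 6.5 on 5 arrays: day 10 replicate 5 (6.71), day 14 replicate 2 (7.10), day 17 replicate 1 (6.82), and control replicates 1 (7.08) and 3 (7.55). The group means were 6.33, 6.38 and 6.33 on tumour days 10, 14 and 17 and 6.82 in controls. All 13 thalamus markers had a lower mean than controls on each tumour day, and 0 passed the test. The mean of 3 red cell genes was 5.09, 5.66 and 6.00 on tumour days 10, 14 and 17 and 4.37 in controls, and 2 of the 3 were called higher on days 14 and 17. Without the 5 arrays high in thalamus markers 0 members were called in any comparison with control. The differences of the called members without them are given below. Control replicates 2 and 4 were then the only controls left, so fewer controls and less thalamus cannot be told apart in those fits.

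On day 10, Kcns2 was the one member that fell, and among all 18820 genes it was the one gene called lower. Kcns2 encodes Kv9.2, an electrically silent subunit that forms no channel alone and alters the voltage-gated channels it joins. Its level (probe set 10423647) was 4.71, 5.36, 5.28, 5.11 and 5.42 in the 5 tumour-bearing mice of day 10, against 5.79, 5.59, 5.77 and 5.81 in the 4 controls. No tumour-bearing mouse of day 10 reached the lowest control. The mean was 5.18 ± 0.28 on day 10 and 5.74 ± 0.10 in controls (SD, n = 5 and 4), a log2 difference of -0.56 ± 0.10 (SE, limma, adjusted p = 0.028). This was 1 of 87 members, or 1.15%, where 0.106% of all genes were called in either direction and 0.00531% were called lower.

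Kcns2 ran from 5.29 to 5.64 with a median of 5.51 on day 14 (n = 7), and from 5.28 to 5.47 with a median of 5.34 on day 17 (n = 6). On day 14 replicates 3 and 5 lay above the lowest control, and on day 17 none did. The differences were -0.24 ± 0.10 on day 14 (adjusted p = 0.378, limma) and -0.38 ± 0.10 on day 17 (adjusted p = 0.0636, limma). The mean of the 3 tumour groups was lower than control by a log2 difference of -0.39 ± 0.08 (adjusted p = 0.0341, limma), where 0.643% of all genes were called in either direction and 0.292% were called lower. Kcns2 was also the 1 member past the F test over the 4 groups (adjusted p = 0.0426, limma), which called 0.335% of all genes. Its difference between day 14 and day 10 was 0.33 ± 0.09, which did not pass the test (adjusted p = 0.516, limma).

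The day 10 call of Kcns2 was lost when any of control replicates 1 to 4 or day 10 replicates 2 or 4 was left out, with differences between -0.63 and -0.45 over the 22 omissions and an adjusted p of at most 0.182 (limma). Day 10 replicate 1 held the lowest level of the gene on any array. Without the 5 arrays high in thalamus markers the day 10 difference was -0.58 (adjusted p = 0.446, limma), and with the thalamus marker mean in the fit it was -0.52 (adjusted p = 0.155). The difference of the mean of the 3 tumour groups was -0.37 without those arrays (adjusted p = 0.573, limma), and the F test then called 0 members.

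**Figure D1:**
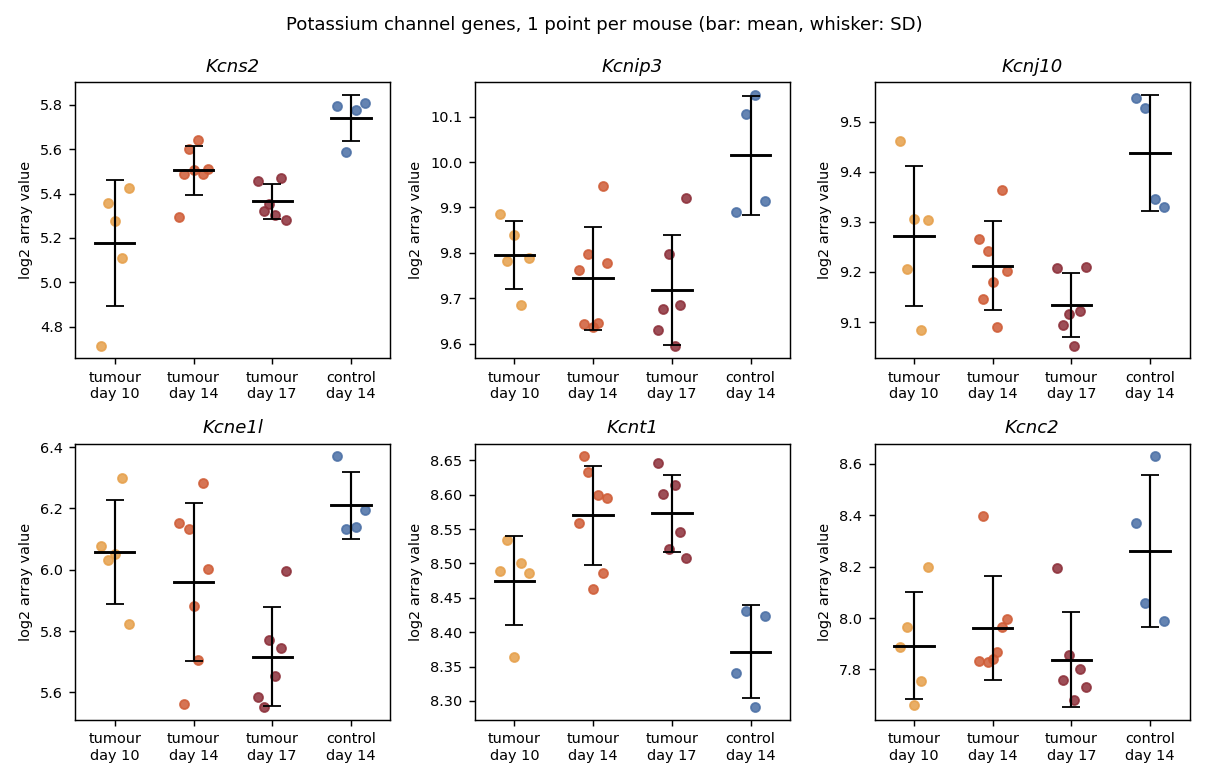
Log2 array value of 6 potassium channel genes in each mouse, by group from tumour day 10 to control day 14, with 1 point per mouse and the mean and SD of the group. For Kcns2 all 5 mice of day 10 and all 6 of day 17 sit below the 4 controls, and for Kcnj10 and Kcne1l all 6 of day 17 do, while all 7 of day 14 and all 6 of day 17 sit above the controls for Kcnt1.

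The other silent subunits did not pass the test on any day, though Kcng1 did on day 17 under some alternatives given at the end. Kcng1, which encodes Kv6.1, another silent subunit, had 5.73, 5.85, 5.72, 5.48 and 5.49 on day 10, from 5.48 to 5.70 on day 14 (median 5.60) and from 5.21 to 5.77 on day 17 (median 5.49), against 5.69, 5.91, 6.02 and 5.77 in controls. The tumour groups of each day overlapped the controls, and the difference on day 17 was -0.37 ± 0.10 (adjusted p = 0.0678, limma). Kcns3 (Kv9.3) differed by -0.05, -0.10 and -0.08 on days 10, 14 and 17. Kcnf1 (Kv5.1) differed by 0.08, 0.05 and 0.00, and Kcnv1 (Kv8.1) by 0.11, 0.09 and -0.07. Kcns1 (Kv9.1), below background, differed by 0.01, 0.08 and -0.03. The standard errors of these 4 genes were between 0.07 and 0.11. Whether these differences were unlike that of Kcns2 was not tested.

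On day 17, Kcnj10, Kcne1l and Kcnip3 fell, which is 3.45% of the 87 members, where 1.12% of all genes were called in either direction and 0.685% were called lower. Kcnj10 encodes Kir4.1, the main potassium channel of astrocytes, which takes up potassium released by neurons. Its level (probe set 10351781) was 9.05 to 9.21 with a median of 9.12 in the 6 mice of day 17, against 9.55, 9.53, 9.35 and 9.33 in controls. The groups did not overlap. The mean was 9.13 ± 0.06 on day 17 and 9.44 ± 0.12 in controls (SD, n = 6 and 4), a difference of -0.30 ± 0.07 (adjusted p = 0.0315, limma).

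On the earlier days Kcnj10 was 9.46, 9.21, 9.31, 9.08 and 9.30 on day 10, and 9.09 to 9.36 with a median of 9.20 on day 14. Replicate 1 of day 10 and replicate 6 of day 14 lay within the range of the controls. The differences were -0.17 ± 0.07 on day 10 (adjusted p = 0.411, limma) and -0.23 ± 0.07 on day 14 (adjusted p = 0.179, limma). The 7 astrocyte markers, all above background, averaged 9.07, 8.97 and 8.95 on tumour days 10, 14 and 17 and 9.04 in controls, and 0 of the 7 were called on any day. Their part in the Kcnj10 difference was not tested. Leaving out control replicate 1, 2 or 3 or day 17 replicate 2, 3, 4 or 5 ended the call of Kcnj10, with an adjusted p of at most 0.126 and differences from -0.34 to -0.27. Without the 5 arrays high in thalamus markers the difference was -0.31 (adjusted p = 0.387, limma). Kcnj16, another inward rectifier gene among the set roles, was not called. It averaged 8.03, 7.98 and 7.95 on tumour days 10, 14 and 17 and 8.07 in controls.

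Kcnip3 encodes KChIP3, also called DREAM or calsenilin, a calcium sensor that binds Kv4 channels and, in the nucleus, acts as a transcriptional repressor. Its level (probe set 10487392) was 9.60 to 9.92 with a median of 9.68 on day 17, against 9.89, 10.11, 10.15 and 9.92 in controls. Of the day 17 mice, replicate 6 alone reached the controls. The mean was 9.72 ± 0.12 on day 17 and 10.01 ± 0.13 in controls (SD, n = 6 and 4), a difference of -0.30 ± 0.07 (adjusted p = 0.0465, limma). On day 14 the level was 9.64 to 9.95 with a median of 9.76, and the difference was -0.27 ± 0.07 (adjusted p = 0.125, limma). On day 10 it was 9.89, 9.78, 9.84, 9.69 and 9.79, all below the lowest control, with a difference of -0.22 ± 0.08 (adjusted p = 0.303, limma).

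Of the 4 calls that of Kcnip3 was lost most often, in 14 of the 22 omissions of an array: control replicates 1, 2 and 3, day 10 replicates 2, 3 and 5, day 14 replicates 3, 5 and 7, and day 17 replicates 1 to 5. The differences then ran from -0.34 to -0.25 with an adjusted p of at most 0.186. Without the 5 arrays high in thalamus markers the difference was -0.28 (adjusted p = 0.456, limma). The other KChIPs did not pass the test. Kcnip1 differed by -0.06, 0.02 and -0.01 on days 10, 14 and 17, Kcnip2 by 0.03, 0.00 and -0.03, and Kcnip4 by -0.17, -0.09 and -0.08.

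Kcne1l, which RefSeq lists on the X chromosome and which is also called Kcne5, encodes a small single-pass peptide that modulates voltage-gated channels. Its level (probe set 10607085) was 5.55 to 6.00 with a median of 5.70 on day 17, against 6.37, 6.13, 6.14 and 6.20 in controls. The groups did not overlap. The mean was 5.72 ± 0.16 on day 17 and 6.21 ± 0.11 in controls (SD, n = 6 and 4), a difference of -0.49 ± 0.12 (adjusted p = 0.0432, limma). It was the most negative difference of the 87 members on that day. On day 10 the level was 6.08, 6.03, 6.05, 6.30 and 5.82 (difference -0.15 ± 0.12, adjusted p = 0.678, limma), and on day 14 it was 5.56 to 6.28 with a median of 6.00 (difference -0.25 ± 0.11, adjusted p = 0.451, limma). Both of these groups overlapped the controls.

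The call of Kcne1l was lost in 12 of the 22 omissions: control replicates 1 to 4, day 10 replicates 2 and 3, day 14 replicate 7, and day 17 replicates 1 to 5. The differences ran from -0.55 to -0.44 with an adjusted p of at most 0.155. Without the 5 arrays high in thalamus markers the difference was -0.42 (adjusted p = 0.412, limma), whereas with the thalamus marker mean in the fit it was -0.60 (adjusted p = 0.029). Of the 5 measured markers of ependyma and tanycytes, Tmem212, a gene of ciliated ependymal cells, was called lower on day 17 at -0.41 ± 0.09 (adjusted p = 0.0264, limma), and the mean of the 5 was 5.52 on day 17 and 5.69 in controls. Their part in the Kcne1l difference was not tested. The 4 other Kcne genes measured were below background, and the highest of their differences was that of Kcne2, at 0.18, 0.24 and 0.23 on days 10, 14 and 17 (adjusted p = 0.434, 0.223 and 0.151).

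Kcnt1 was the member closest to a call in the upward direction. It encodes Slack, a channel opened by intracellular sodium that limits repetitive firing. Its level (probe set 10470214) was 8.49, 8.53, 8.36, 8.50 and 8.49 on day 10, 8.46 to 8.66 on day 14 (median 8.60) and 8.51 to 8.65 on day 17 (median 8.57), against 8.34, 8.43, 8.29 and 8.42 in controls. All mice of days 14 and 17 lay above the highest control. The differences were 0.10 ± 0.05, 0.20 ± 0.05 and 0.20 ± 0.05, with adjusted p-values of 0.491, 0.0995 and 0.0515 (limma). Kcnt2, which encodes the related channel Slick, differed the other way, by -0.22, -0.11 and -0.10 (adjusted p = 0.411, 0.678 and 0.614).

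The voltage-gated pore genes had lower means more often than higher ones, without a call outside the alternatives given at the end. Of the Kv3 genes, whose channels let neurons fire at high rates, all 3 had a lower mean on each tumour day. Kcnc1 (Kv3.1) differed by -0.17 ± 0.07, -0.19 ± 0.06 and -0.23 ± 0.07 on days 10, 14 and 17 (adjusted p = 0.4, 0.247 and 0.0935, limma). Kcnc2 (Kv3.2) was 7.89, 7.97, 7.66, 7.75 and 8.20 on day 10, 7.83 to 8.40 on day 14 (median 7.87) and 7.68 to 8.19 on day 17 (median 7.78), against 8.37, 8.06, 8.63 and 7.99 in controls. Its differences of -0.37 ± 0.14, -0.30 ± 0.13 and -0.42 ± 0.13 did not pass the test (adjusted p = 0.34, 0.401 and 0.109, limma).

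The level of Kcnc2 moved with the thalamus markers. Its highest array in each group was the one highest in those markers: day 10 replicate 5 (8.20), day 14 replicate 2 (8.40), day 17 replicate 1 (8.19) and control replicate 3 (8.63). In a fit with the 4 groups and the thalamus marker mean, Kcnc2 rose by 0.58 ± 0.06 per unit of that mean (adjusted p = 4.50e-06, limma), and Kcna4, a voltage-gated channel gene (Kv1.4), by 0.36 ± 0.07 (adjusted p = 0.0183). These 2 were 2.3% of the 87 members, where 0.383% of the 18807 genes outside the marker list were called. Without control replicate 3 and day 14 replicate 2, the 2 arrays highest in the markers, the slope of Kcnc2 was 0.62 (adjusted p = 0.00609, limma) and that of Kcna4 0.29 (adjusted p = 0.509). Over the 17 arrays with a marker mean of at most 6.5 the slope of Kcnc2 was 0.77 ± 0.53 (adjusted p = 0.748). With the marker mean in the fit, the differences of Kcnc2 were -0.08, -0.05 and -0.14 on days 10, 14 and 17. The slopes of the 4 called members were 0.08 ± 0.10 for Kcns2, -0.01 ± 0.07 for Kcnj10, -0.03 ± 0.08 for Kcnip3 and -0.23 ± 0.12 for Kcne1l, none of which passed the test.

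**Figure D2:**
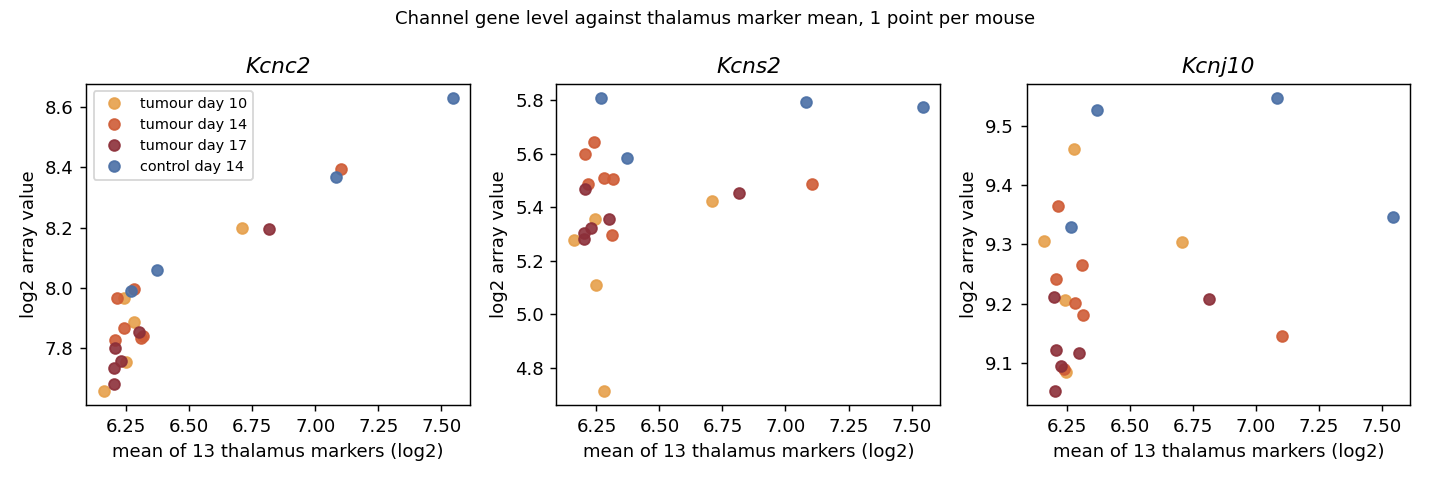
Log2 array value of Kcnc2, Kcns2 and Kcnj10 (vertical axes) against the mean log2 value of 13 thalamus markers (horizontal axes), with 1 point per mouse coloured by group. Kcnc2 is highest on the arrays with the highest marker means, control replicate 3 among them, while Kcns2 and Kcnj10 have no such slope.

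Of the Kv4 genes, which carry the A-type current that delays firing, Kcnd2 (Kv4.2) differed by -0.10 ± 0.06, -0.14 ± 0.05 and -0.16 ± 0.06 on days 10, 14 and 17 (adjusted p = 0.534, 0.367 and 0.147, limma), with all mice of days 14 and 17 below the lowest control. Kcnd3 (Kv4.3) differed by -0.02, 0.02 and -0.00. Among the Kv1 genes, which act at axons and their terminals, Kcna6 (Kv1.6) differed by -0.13, -0.20 and -0.20 (adjusted p = 0.519, 0.234 and 0.128), and Kcna3 (Kv1.3), named after its values were seen, by -0.11, -0.14 and -0.23 (adjusted p = 0.569, 0.446 and 0.0918). Kcna1 (Kv1.1) differed by 0.05, 0.05 and 0.06, and Kcna2 (Kv1.2) by -0.09, -0.10 and -0.06. Kcnab3, a beta subunit of Kv1 channels, differed by 0.06, 0.13 and 0.22 (adjusted p = 0.862, 0.642 and 0.259). Of the 7 ether-a-go-go family genes (Kcnh), 6 had a lower mean on each day. Kcnh5 differed by -0.14, -0.10 and -0.12, with no overlap with controls on any day, while Kcnh3 differed by 0.32 ± 0.13 on day 10 (adjusted p = 0.381, limma), 0.07 on day 14 and 0.12 on day 17.

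The genes of the ATP-sensitive channel, which links glucose and ATP to firing in hypothalamic neurons, did not pass the test. Kcnj11, the Kir6.2 pore of neurons, averaged 5.90, 5.67 and 5.59 on tumour days 10, 14 and 17 and 5.84 in controls, with differences of 0.06 ± 0.15, -0.17 ± 0.14 and -0.25 ± 0.15 (adjusted p = 0.918, 0.714 and 0.401, limma). Kcnj8, the Kir6.1 pore of vessel walls and pericytes, differed by 0.12 ± 0.09, 0.17 ± 0.08 and 0.02 ± 0.08. Of the regulatory subunits, Abcc8 (SUR1), the partner of Kir6.2 in neurons, differed by -0.11, -0.04 and -0.08. Abcc9 (SUR2), the partner of Kir6.1, differed by 0.29 ± 0.12, 0.44 ± 0.11 and 0.37 ± 0.11 (adjusted p = 0.391, 0.104 and 0.109, limma). Abcc9 is also 1 of 9 markers of endothelium and pericytes, whose mean was 7.42, 7.47 and 7.47 on tumour days 10, 14 and 17 and 7.32 in controls, with 0 of the 9 called.

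The G-protein-gated inward rectifiers, which carry the inhibition of neurons by opioid, GABA-B and neuropeptide receptors, gave no call, with standard errors of 0.06 to 0.10. Kcnj3 differed by -0.01 ± 0.06, 0.00 ± 0.06 and -0.06 ± 0.06 on days 10, 14 and 17. Kcnj6 differed by -0.02 ± 0.07, -0.13 ± 0.07 and -0.13 ± 0.07, Kcnj9 by -0.03 ± 0.09, -0.10 ± 0.09 and -0.07 ± 0.09, and Kcnj5 by 0.05 ± 0.10, 0.10 ± 0.09 and 0.13 ± 0.09. The M current, a slow current that muscarinic and other receptors close, is represented by Kcnq3 and Kcnq5. Their differences lay between -0.05 and 0.02 with standard errors of 0.07 to 0.08.

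Leak and calcium-activated channels gave no call either. Of the pore genes of the leak current, which sets the resting potential, Kcnk1 (TWIK1) differed by -0.14, -0.04 and -0.03 on days 10, 14 and 17, Kcnk2 (TREK1) by 0.03, 0.08 and 0.09, Kcnk3 (TASK1) by -0.09, -0.03 and -0.06, and Kcnk9 (TASK3) by -0.14, -0.02 and -0.03. Kcnk4 (TRAAK), a leak channel opened by membrane stretch, had the lowest difference of the 14 Kcnk genes on each day, at -0.22 ± 0.10, -0.29 ± 0.09 and -0.25 ± 0.10 (adjusted p = 0.444, 0.243 and 0.193, limma). Kcnk7, below background, differed by 0.30 on day 10 (adjusted p = 0.287), and Kcnk6 by 0.22 on day 14 (adjusted p = 0.51). Kcnma1, the pore of the large-conductance BK channel, differed by -0.08, -0.06 and -0.07. Kcnmb4, its neuronal beta subunit, differed by -0.28 ± 0.14, -0.28 ± 0.13 and -0.29 ± 0.13 (adjusted p = 0.478, 0.458 and 0.275, limma), and its SD among the controls, 0.37, exceeded that difference. The SK channels, which follow calcium entry with a slow hyperpolarization, differed by at most 0.17 in size: Kcnn2 by 0.17 ± 0.07 on day 10 (adjusted p = 0.373, limma), Kcnn1 by -0.07, -0.07 and -0.13, and Kcnn3 by 0.01, -0.07 and -0.14.

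**Figure D3:**
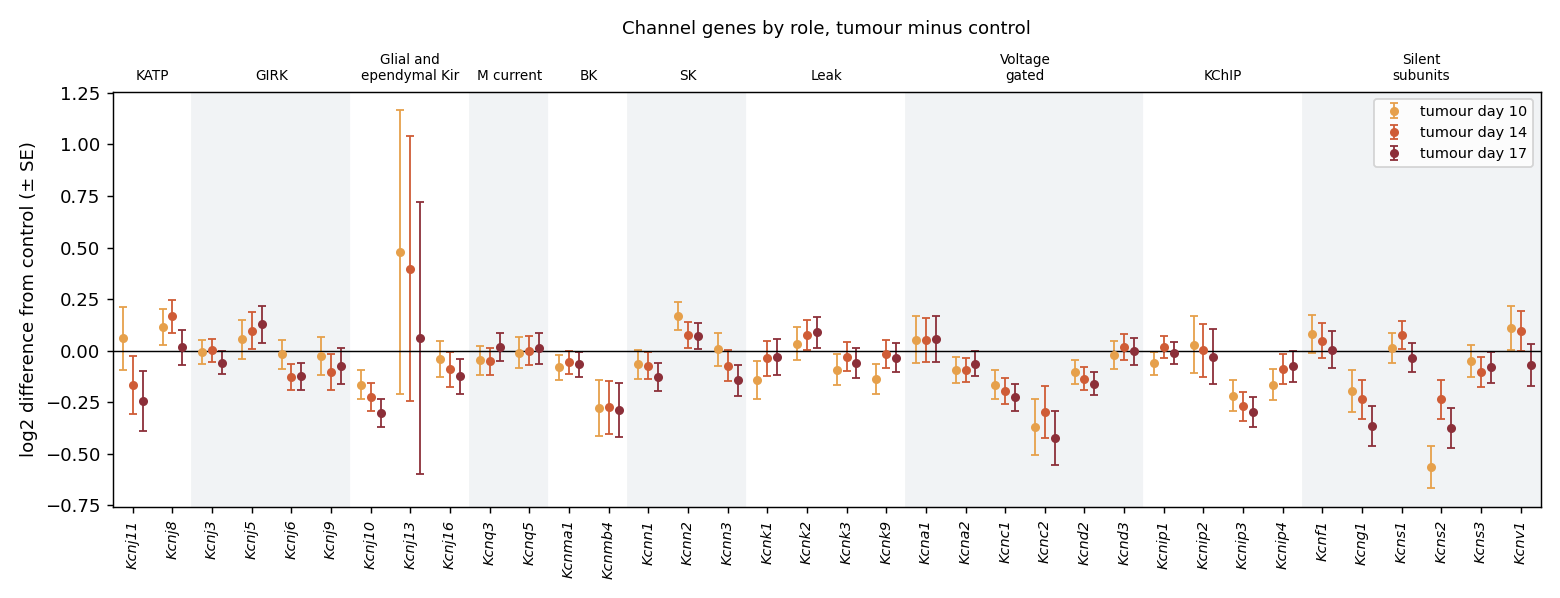
Log2 difference from control on tumour days 10, 14 and 17 for the potassium channel genes grouped by role, with bars for the standard error of the limma fit. Kcnj3, Kcnq3 and Kcnq5 lie between -0.06 and 0.02, Kcnj11 lies at 0.06, -0.17 and -0.25, and Kcns2, Kcnj10 and Kcnip3 lie below 0 on each day.

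Genes that work with these channels but carry other names were taken from a set list, whatever their values: 2 ATP-sensitive channel regulators, 3 HCN genes, 2 Kv4 peptidases, 4 BK gamma subunits and 9 genes that cluster and anchor Kv channels. Of these 20 measured genes 0 were called in either direction on any day, where 0.106%, 0.218% and 1.12% of all genes were called on days 10, 14 and 17. Hcn2, a pacemaker channel, differed by -0.24 ± 0.12, -0.18 ± 0.11 and -0.29 ± 0.11 (adjusted p = 0.484, 0.586 and 0.2, limma). Dpp6 and Dpp10, the peptidase-like partners of Kv4, had differences between -0.10 and -0.03. All 9 clustering and anchoring genes measured had a lower mean on each tumour day, Amigo1 the furthest on day 17 at -0.15 ± 0.05 (adjusted p = 0.162, limma). All 7 neuronal markers measured also had a lower mean on each tumour day, and their mean was 10.69, 10.70 and 10.69 on tumour days 10, 14 and 17 and 10.78 in controls.

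Kcnj13 varied most within groups among the members. It encodes Kir7.1, an inward rectifier of epithelia such as the choroid plexus. Its level (probe set 10356403) was 5.25, 6.80, 4.84, 7.34 and 7.00 on day 10, 4.48 to 7.44 on day 14 (median 6.47) and 4.44 to 7.34 on day 17 (median 5.65), against 4.90, 6.17, 5.46 and 6.54 in controls. The differences were 0.48 ± 0.69, 0.40 ± 0.64 and 0.06 ± 0.66 (adjusted p = 0.833, 0.864 and 0.974, limma). Its SD within groups, 1.14, ranked 3 among all 18820 genes, whose median SD was 0.13, and the next member, Kcnj14, had 0.32.

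The spread of Kcnj13 went with genes of the meninges. The mean of 12 meningeal fibroblast genes (among them Slc6a13, Aldh1a2, Ogn, Dcn and Col1a1) was 5.47 to 6.55 on the 12 arrays with Kcnj13 above 6, and 5.02 to 5.57 on the 10 arrays with less. Within groups, the 12 genes correlated with Kcnj13 at 0.62 to 0.97 (median 0.91) over the 22 arrays. The 8 choroid plexus genes correlated with it at -0.25 to 0.67 (median 0.07), and their mean was 4.49 to 4.92 on the 12 arrays and 4.47 to 4.68 on the 10. Both lists were chosen after the values of Kcnj13 had been seen, the meningeal one after genes that followed it had been looked at, so these are descriptions with no test. The values of 1 point come from the same dissected piece of tissue. The group means of the meningeal list were 5.94, 5.80 and 5.69 on tumour days 10, 14 and 17 and 5.56 in controls. Of the arrays with Kcnj13 above 6, 3 were of day 10, 4 of day 14, 3 of day 17 and 2 of controls.

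**Figure D4:**
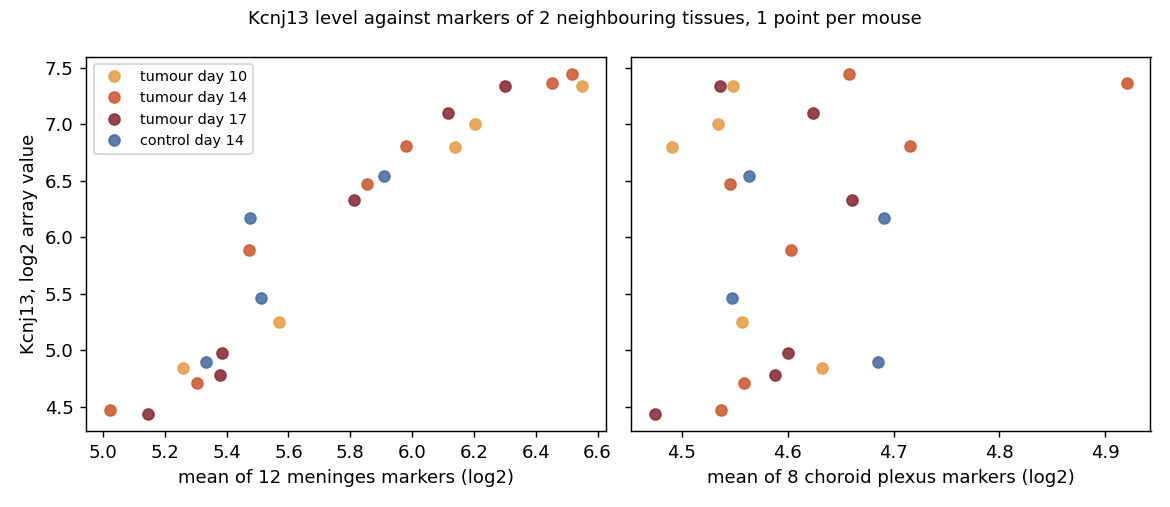
Log2 array value of Kcnj13 against the mean log2 value of 12 meningeal genes (left) and of 8 choroid plexus genes (right), with 1 point per mouse coloured by group. Kcnj13 climbs from 4.44 to 7.44 along the meningeal mean and shows no such course along the choroid plexus mean. The meningeal genes were chosen after genes that followed Kcnj13 on these arrays had been looked at, so the climb is no test. Each tumour group is spread over most of that range, while the 4 controls lie between 4.90 and 6.54.

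More of the members had a mean below control than above it on each tumour day. On day 10, 50 of the 87 (57.5%) had a lower mean than control, where 49.7% of all genes did. On day 14 it was 54 (62.1%), where 52% of all genes did, and on day 17 it was 56 (64.4%), where 53.7% did. The median difference of the members was -0.03, -0.06 and -0.06 on days 10, 14 and 17, and that of all genes 0.00, -0.00 and -0.01. Among genes above background alone, it was -0.06, -0.07 and -0.08 for the 72 members and -0.02, -0.02 and -0.03 for all 13793 such genes. Without the 5 arrays high in thalamus markers the day 10 median of the 87 members was 0.00566, and with arrays centred on their median their day 17 median was -0.0298. The median standard error of 1 member was 0.09 on each day. These shares all rest on the same 4 control mice, so the days are not independent of each other.

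At an unadjusted p below 0.05, 14 members passed on day 10 (16.1%, where 10.7% of all genes did). Of these 5 were higher (5.75%, where 5.27% of all genes were) and 9 lower (10.3%, where 5.43% were). On day 14 it was 15 (17.2%, where 10.5% did), 2 higher (2.3%, where 4.28% of all genes were) and 13 lower (14.9%, where 6.18% were). At an adjusted p of 0.05 the day 14 count was 0 of the 87, where 0.218% of all genes were called. On day 17 it was 22 (25.3%, where 16.6% did), 3 higher (3.45%, where 6.13% of all genes were) and 19 lower (21.8%, where 10.5% were). All mice of day 10 lay outside the controls for 5 members (5.75%, where 4.45% of all genes did), namely Kcnc1, Kcnh5, Kcnip3 and Kcns2 below and Kcnh3 above. On day 14 this held for 3 (3.45%, where 1.84% did), Kcnd2 and Kcnh5 below and Kcnt1 above. On day 17 it held for 10 (11.5%, where 4.96% did): Kcna3, Kcnd1, Kcnd2, Kcne1l, Kcnh2, Kcnh5, Kcnj10 and Kcns2 below, and Kcnab3 and Kcnt1 above.

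**Figure D5:**
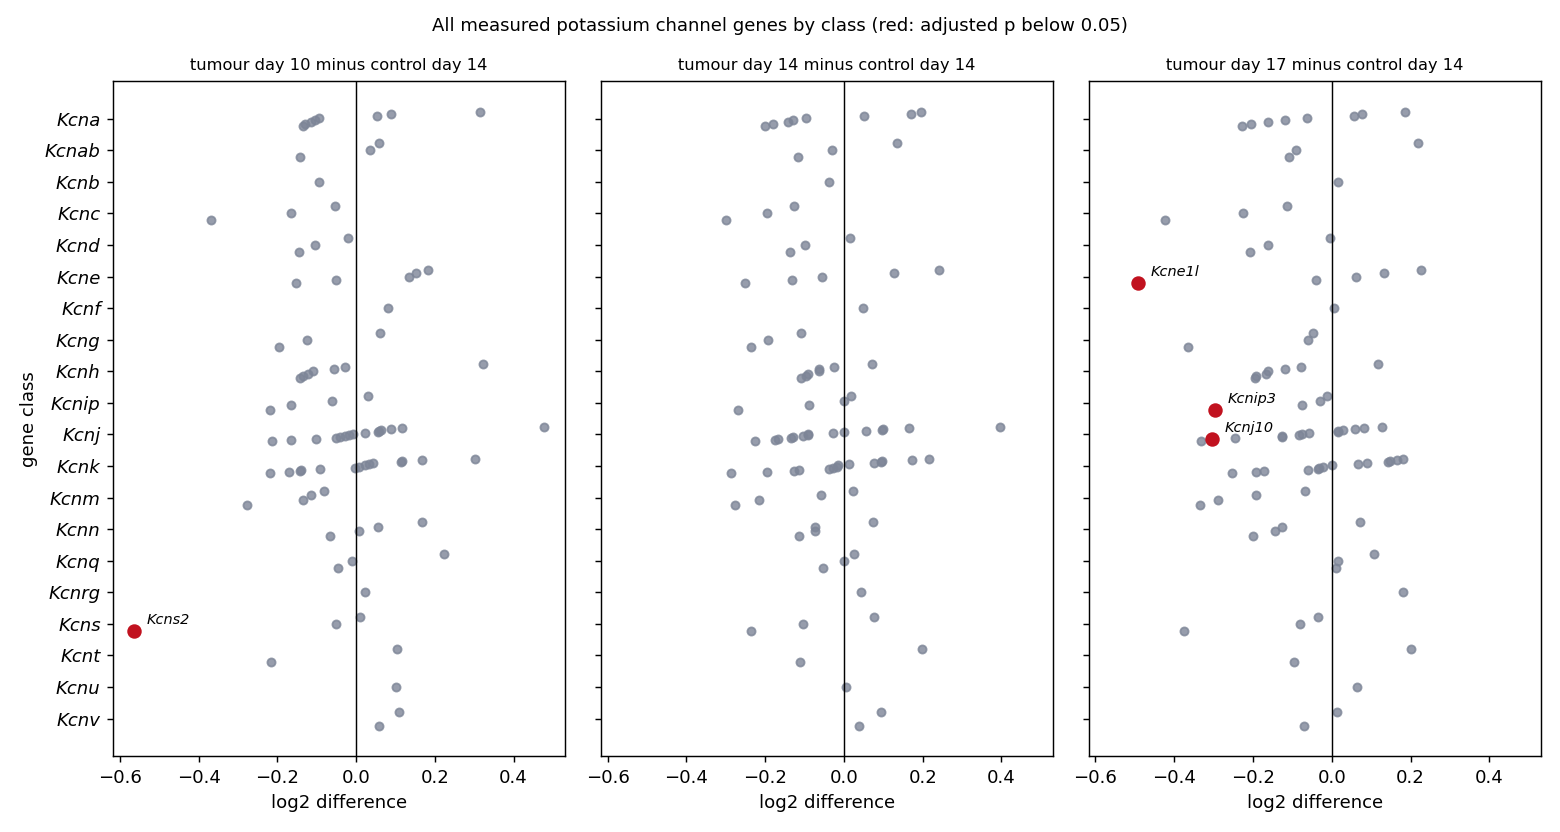
Log2 difference from control of each of the 87 potassium channel genes on tumour days 10, 14 and 17, by gene class, with 1 point per gene. Most points lie within 0.2 of 0, and the lowest are those of Kcns2 on day 10 (-0.56) and Kcne1l on day 17 (-0.49).

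By class, the 3 Kcnc genes had a lower mean on all 3 days, with medians of -0.17, -0.19 and -0.23. The 4 BK genes (Kcnm) had medians of -0.12, -0.14 and -0.24, with all 4 lower on days 10 and 17 and 3 of 4 on day 14. The 7 Kcnh genes had medians of -0.11, -0.06 and -0.16. The 14 leak genes (Kcnk) were balanced, with 6, 8 and 7 lower on days 10, 14 and 17 and medians of 0.02, -0.02 and -0.01. The 15 inward rectifiers (Kcnj) had 8, 9 and 9 lower and medians of -0.01, -0.09 and -0.07. The 3 Kcnq genes had medians of -0.01, 0.00 and 0.02. Differences between classes were not tested.

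Between tumour days, 0 of the 87 members were called. All genes gave 0% called for day 17 against day 10, 0.00531% for day 14 against day 10 and 0% for day 17 against day 14 (limma, adjusted p below 0.05). At an unadjusted p below 0.05, 5 members passed for day 17 against day 10 (5.75%, where 8.3% of all genes did), 6 for day 14 against day 10 (6.9%, where 7.13% did) and 3 for day 17 against day 14 (3.45%, where 4.17% did). The difference of Kcne1l was -0.34 ± 0.11 for day 17 against day 10 (adjusted p = 0.437, limma) and -0.24 ± 0.10 for day 17 against day 14 (adjusted p = 1.000), neither past the test.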

How the data were processed

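RNA from 22 hypothalami, 1 per mouse, with an integrity number above 8 per the labels' protocols, was amplified as whole transcripts and hybridised, 1 array per mouse. The authors deposited log2 intensities made with RMA, according to the submitters' processing notes. RMA corrects background, normalizes between arrays and summarizes probes, and it compresses differences of dim probe sets. The labels state neither its version nor a genome build. The number of arrays limits the precision.

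Of 35556 probe sets, the platform annotation paired 21218 with 1 gene. The members and all gene lists were chosen with earlier results of these data known. Differences were tested with limma 3.58.1 in R 4.3.3 on 4 group means (18 residual degrees of freedom), two-sided, with Benjamini-Hochberg adjustment over all 18820 genes and no filter on low values. The fit was tested on simulated data. P-values set a difference of group means against the spread between mice within groups. They cannot cover a day of inoculation or a tumour donor that mice of a group may have shared. The text names members past adjusted p 0.05, the 4 with the smallest p in each direction on each day, and genes of set roles whatever their values. Mice with the same replicate number had correlations of their deviations from -0.19 to 0.35 (28 pairs, median 0.12), against -0.28 to 0.50 (median -0.01) for the 151 pairs of different number. As not every same-number pair was above 0.1, and no label ties the numbers to a shared source, the numbers were not taken to pair samples. No 2 arrays were identical. Alternatives were scaling, variance moderation, array weights, probe set rules, a filter, blocks, a thalamus covariate and leaving out arrays.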

Additional observations from a re-analysis of the deposited data

Results flagged for a closer look

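Among the 4 called genes in 4 groups, 1 of 16 sets of arrays held a value far from the others, and chance flags about 1 set in 20. For Kcns2, control replicate 2 had 5.59, below the other 3 controls at 5.77 to 5.81. Every mouse of days 10 and 17 was below this lowest control as well.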

How the results depend on the processing

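No called difference changed sign under any alternative, and 0 members were called between tumour days under any of them. The day 10 count of 1 became 0 with a second quantile normalization, the thalamus covariate, only the groups compared, without the 5 arrays high in thalamus markers, and in the earlier or later run of accessions alone, the last 3 settings being chosen after seeing the data. The day 14 count of 0 became 1 with a variance trend (Kcnt1), array weights (Kcnip3), the replicate block (Kcnip3) and an adjusted p below 0.1 (Kcnt1). The day 17 count of 3 became 8 with array weights and at an adjusted p below 0.1, 6 with a filter on background and with the replicate block, 1 with a second quantile normalization (Kcnt1) and with the thalamus covariate (Kcne1l), and 0 without the 5 arrays and in either run alone. The count for the mean of the tumour groups, 1, became 8 with array weights, 4 with a trend, the filter and an adjusted p below 0.1, 3 with the replicate block, 2 with a term for the run, and 0 with arrays centred on their median, the thalamus covariate, without the 5 arrays and in either run alone. The F test count of 1 became 4 with the replicate block and 0 with centring, a second quantile normalization, the thalamus covariate, without the 5 arrays and in either run alone. The replicate numbers were not taken to pair mice, and 5 of 22 arrays correlated best with their own number. Leaving out 1 array gave counts of 0 to 1 on day 10, 0 to 1 on day 14, 0 to 5 on day 17, 0 to 3 for the mean of the tumour groups, 0 to 1 for the F test and 0 to 0 between days. The median difference of the members was 0.00566 on day 10 without the 5 arrays, where it had been -0.03, and -0.0298 on day 17 with arrays centred on their median, where it had been -0.06. Over single omissions it ran from -0.05 to -0.00 on day 10, from -0.08 to -0.04 on day 14 and from -0.08 to -0.04 on day 17. The day 17 count was 2 with each of 3 further settings: Kcnj10 and Kcnip3 did not pass with centring (adjusted p = 0.0511 and 0.0798, limma) and with only the groups compared (0.0609 and 0.127), and Kcnip3 with a term for the run (0.0521). In their place, Kcnt1 was called higher with centring (0.0400) and Kcns2 lower with only the groups compared (0.0278). Kcnt1 was also called higher on day 17 with a variance trend, array weights, the filter and the replicate block, and Kcne2 with array weights. Kcng1 and Kcns2 were called lower on day 17 with array weights, the filter and the replicate block, and Kcnc1 with array weights. What made a count change was not tested under any alternative. The run of accessions, the first 9 and the last 13, is not stated as a batch in the labels. In the later run alone the differences were -0.45 for Kcns2 on day 10 and -0.27, -0.32 and -0.36 for Kcnj10, Kcnip3 and Kcne1l on day 17, and in the earlier run alone -0.76, -0.41, -0.19 and -0.73. The earlier run held 1 control, replicate 1, which is among the 5 arrays high in thalamus markers, so its differences rest on that array. Controls of day 14 alone served all 3 days, so the age of the mice and the day of the tumour cannot be told apart on days 10 and 17.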
